A study of Mus musculus with 20 samples.

Results

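The expression of 9 genes that mark monocytes was followed in bone marrow RNA of 20 mice. The genes were Ccr2, Csf1r, F13a1, Vcan, Ly86, Ms4a6c, Irf8, Cx3cr1 and Fcgr1. They are given by name, the rule uses no measured value, and the choice was made with earlier results of these data known. Each symbol was matched to 1 Ensembl gene among the 37620 genes of the count table. All 9 genes had reads in all 20 mice and passed the filter on low counts in every comparison, so none was lost to it.

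Marrow from donors 8 to 12 weeks old, carrying a doxycycline-inducible transgene for mutant U2AF1(S34F) or for U2AF1(WT) together with rtTA, had been engrafted in lethally irradiated congenic wild-type (C57BL/6 × 129S4Sv/Jae)F1 recipients 6 to 12 weeks old. Cells of 2 to 3 donors had been pooled before transplantation, and recipients were matched to donors by sex. After more than 6 weeks of engraftment, all 4 groups, of 5 mice each, received doxycycline chow (625 ppm) for 7 days. The chow induces either transgene, and the controls thus carry a U2AF1(WT) transgene and not an unaltered genome. The samples are labelled bone marrow, and cells of the recipient that survived irradiation could be among them. For the last 5 days the mice received either vehicle or 50 mg per kg per day of sudemycin D6, a compound that binds the SF3B1 protein of the spliceosome, and marrow was taken 18 h after the last infusion. The replicates are recipients of pooled marrow, and p-values measure the spread between recipients. The groups are called here vehicle WT, sudemycin WT, vehicle S34F and sudemycin S34F.

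Monocytes are made in the marrow from myeloid progenitors under the control of transcription factors such as IRF8. The cells that carry much CCR2, the receptor through which the chemokine CCL2 draws them into the blood, are called classical, and those with much CX3CR1, the receptor of fractalkine, are called nonclassical or patrolling. CSF1R, the receptor of the growth factors CSF1 and IL-34, marks monocytes and macrophages and sustains the nonclassical cells in particular. U2AF1 recognises the AG at 3′ splice sites, and sudemycins act on the complex that reads the branch point beside it.

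The gene counts summed to between 41145892 and 62138138 per mouse. Counts of Xist ran from 39145 to 78640 where the transgene was U2AF1(WT) and from 1 to 8 where it was U2AF1(S34F), and 4 Y-linked genes summed had 0 to 4 and 10270 to 15034 counts, respectively. The genotype therefore coincided with the sex-linked transcripts, and the part of the genotype and the part of sex cannot be told apart in any comparison between genotypes below. Comparisons between drug and vehicle within a genotype do not carry this limit. A difference of the drug's effect between genotypes does carry it, as does mutation and drug together against neither. Counts of U2af1 itself ran from 1496 to 2280 in WT and from 2514 to 3274 in S34F marrow. In bulk RNA, fewer cells of a type and less RNA per cell cannot be told apart.

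Levels are given as CPM, the usual scaling of gene counts to a common library total, with totals corrected by the TMM method, and levels of different genes were compared only after division by exon length. In vehicle WT marrow, F13a1, which encodes the A subunit of coagulation factor XIII, was highest per kb of exon at 117 ± 22.7 CPM per kb (mean ± SD, n = 5). Ms4a6c, a member of the membrane-spanning 4A family, had 69.6 ± 17.9 CPM per kb, Csf1r had 66.7 ± 6.73 and Ccr2 had 60.9 ± 17.9. These latter 3 did not differ beyond their spread. Ly86, which encodes MD-1, the partner of the receptor CD180, followed at 31.7 ± 7.26 CPM per kb. Irf8 had 22.1 ± 2.42 and Cx3cr1 16.0 ± 1.46 CPM per kb. Vcan, which encodes the matrix proteoglycan versican, had 7.19 ± 4.91 CPM per kb. Fcgr1, the high-affinity Fc receptor for IgG, was lowest at 2.25 ± 0.978 CPM per kb. In sudemycin S34F marrow the order was altered at 2 places. Ccr2, at 113 ± 19.9 CPM per kb, stood next to F13a1, at 121 ± 20.6, and within its spread, and Vcan, at 12.3 ± 2.67, was beside Cx3cr1, at 11.2 ± 2.64.

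**Figure D1:**
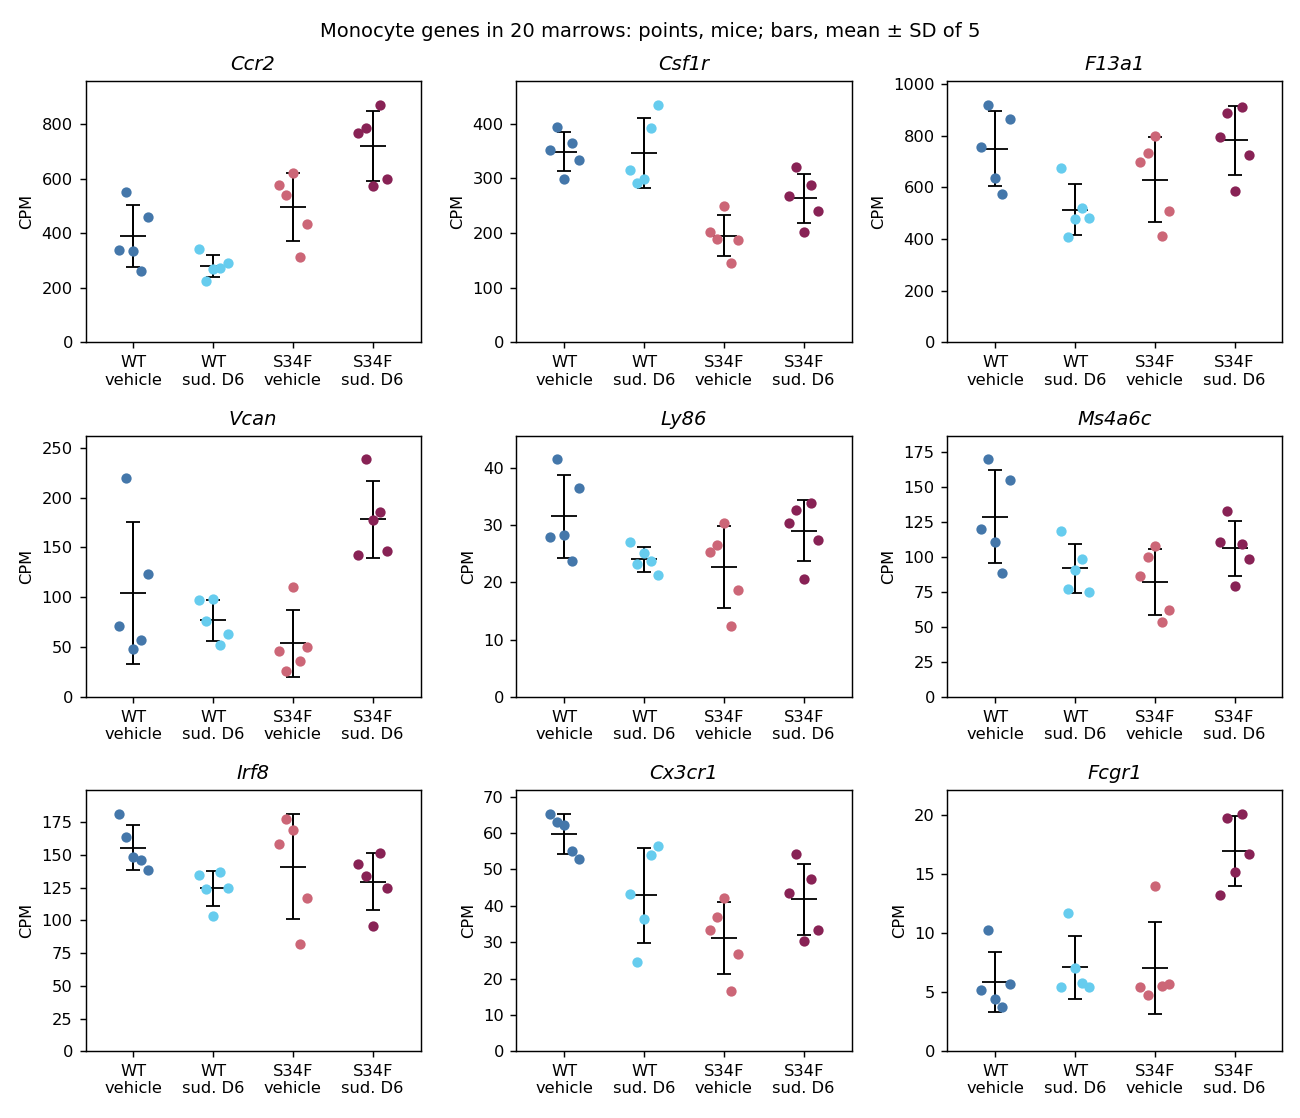
Level of each of the 9 genes in CPM (vertical axis, linear, from 0) in the 4 groups; points are mice, and bars are the mean ± SD of 5 mice. The 5 sudemycin S34F mice sit at 574 to 871 CPM for Ccr2 and 13.2 to 20.1 CPM for Fcgr1, and the 5 vehicle S34F mice sit at 144 to 249 CPM for Csf1r, below the 10 WT mice.

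Under vehicle, U2AF1(S34F) marrow had lower RNA levels of Csf1r, Cx3cr1 and Ms4a6c than U2AF1(WT) marrow. In edgeR's quasi-likelihood test with Benjamini-Hochberg adjustment over all genes tested, 3 of the 9 genes were lower at FDR<10% and 0 were higher. Of all 14817 genes tested, 19.8% were lower and 19.7% were higher, so that calls in either direction were common at large. The median log2 fold change of the 9 genes was -0.49, beside 0.00207 over all genes.

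Csf1r (ENSMUSG00000024621, chr18:61265226-61291803, + strand, mm9) had 299.7, 334, 351, 365 and 394 CPM in the 5 vehicle WT mice (all per-mouse values are given from the lowest to the highest). In the vehicle S34F mice it had 144, 187, 189.8, 203 and 249 CPM. All 5 S34F mice were below all 5 WT mice, and Csf1r fell to 0.554 times the WT level (log2 fold change -0.85, 95% CI -1.12 to -0.58, FDR = 0.000422). Cx3cr1 (ENSMUSG00000052336, chr9:119957811-119977400, - strand) had 52.8, 55.03, 62.2, 63.1 and 65.3 CPM in vehicle WT mice. In vehicle S34F mice it had 16.7, 26.7, 33.4, 36.96 and 42.1 CPM. These groups did not overlap either, and Cx3cr1 was lower (log2 fold change -0.95, 95% CI -1.38 to -0.52, FDR = 0.00469). The 2 of 9 genes whose groups did not overlap stand beside 20.2% of all genes tested. Ms4a6c (ENSMUSG00000079419, chr19:11543858-11556687, + strand) had 88.7, 110.5, 119.7, 155 and 169.6 CPM in vehicle WT mice and 53.4, 61.9, 86.6, 99.9 and 108 CPM in vehicle S34F mice. It was lower (log2 fold change -0.67, 95% CI -1.15 to -0.18, FDR = 0.0416), but the groups overlapped, and the call was lost when genes with low counts were not filtered (FDR = 0.105 in edgeR). Ms4a6c has close paralogs in its family, and how reads shared with them were counted is not given in the sources used here.

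The other 6 genes did not pass the threshold under vehicle. Ccr2 (ENSMUSG00000049103, chr9:124016689-124028296, + strand) had 264, 334, 339, 461 and 549.8 CPM in vehicle WT mice and 312, 433, 540.1, 576 and 619 CPM in vehicle S34F mice. Unlike Csf1r, its mean was the larger in S34F (log2 fold change 0.34, 95% CI -0.14 to 0.81, FDR = 0.267), and the groups overlapped widely. Vcan (ENSMUSG00000021614, chr13:89794915-89882117, - strand) had 47.7, 57.3, 71.6, 123 and 220.0 CPM in vehicle WT mice and 26.1, 35.7, 45.9, 50.01 and 111 CPM in vehicle S34F mice. In each group 1 mouse stood well above the rest, and the interval was wide (log2 fold change -0.96, 95% CI -2.17 to 0.25, FDR = 0.206). Without the high S34F mouse (replicate 5) Vcan passed the threshold (log2 fold change -1.41, FDR = 0.0692 in edgeR). Ccr2 passed it, as higher in S34F, without vehicle S34F replicate 7 (log2 fold change 0.46, FDR = 0.0988) or without vehicle WT replicate 2 (log2 fold change 0.50, FDR = 0.091).

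Ly86 (ENSMUSG00000021423, chr13:37437214-37510905, + strand) had 23.7 to 41.5 CPM in vehicle WT mice and 12.3 to 30.4 CPM in vehicle S34F mice. The groups overlapped (log2 fold change -0.49, 95% CI -0.997 to 0.011, FDR = 0.125), and Ly86 was called lower by DESeq2 (adjusted p = 0.0637) and, without vehicle S34F replicate 5, by edgeR (FDR = 0.0619). F13a1 had 576 to 920.2 CPM in WT and 412 to 799 CPM in S34F mice, Irf8 138 to 182 and 82.2 to 178 CPM, and Fcgr1 3.77 to 10.3 and 4.77 to 14.05 CPM. The ranges of these 3 genes overlapped throughout, with log2 fold changes of -0.27, -0.16 and 0.26 and FDR of 0.283, 0.528 and 0.609 in edgeR.

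In mice given sudemycin D6, Ccr2, Vcan, Fcgr1 and F13a1 were higher in U2AF1(S34F) than in U2AF1(WT) marrow, and Csf1r was lower. Thus 4 of the 9 genes were called higher and 1 lower, beside 17.2% and 19.6% of the 14677 genes tested. The median log2 fold change was 0.27, beside -0.0269 over all genes. The groups did not overlap for 3 of the 9 genes, beside 19.7% of all genes.

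Ccr2 had 226, 268, 274, 290.2 and 342 CPM in sudemycin WT mice. In sudemycin S34F mice it had 574, 600.2, 768, 786 and 871 CPM. The lowest S34F mouse was well above the highest WT mouse, and Ccr2 was 2.56-fold higher (log2 fold change 1.36, 95% CI 1.05 to 1.66, FDR = 8.78e-05). Vcan had 51.8, 62.7, 75.99, 96.8 and 98.3 CPM in sudemycin WT mice. In sudemycin S34F mice it had 142, 146, 178, 186 and 238 CPM. Again the groups did not overlap, and Vcan was 2.3-fold higher (log2 fold change 1.20, 95% CI 0.79 to 1.61, FDR = 0.00101). Fcgr1 (ENSMUSG00000015947, chr3:96086832-96098179, - strand) had 5.42, 5.46, 5.81, 7.09 and 11.8 CPM in sudemycin WT mice. In sudemycin S34F mice it had 13.2, 15.2, 16.7, 19.8 and 20.1 CPM. The groups were apart, although 1 WT mouse (replicate 8) lay near the S34F mice, and Fcgr1 was 2.38-fold higher (log2 fold change 1.25, 95% CI 0.80 to 1.71, FDR = 0.00149). Fcgr1 had the fewest reads of the 9 genes, 182 to 1068 counts per mouse.

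F13a1 (ENSMUSG00000039109, chr13:36959047-37142113, - strand) had 409, 478, 484, 519 and 675 CPM in sudemycin WT mice. In sudemycin S34F mice it had 585, 727, 797, 889.7 and 911 CPM. F13a1 was 1.52-fold higher (log2 fold change 0.60, 95% CI 0.27 to 0.93, FDR = 0.0119), with 1 WT mouse among the S34F values. Csf1r had 291, 299, 316, 393 and 434 CPM in sudemycin WT mice and 201, 240.2, 268, 287 and 320.4 CPM in sudemycin S34F mice. It was the one gene of the 9 called lower (log2 fold change -0.40, 95% CI -0.71 to -0.089, FDR = 0.0555). The call was near the threshold, and the FDR was between 0.119 and 0.13 in edgeR without sudemycin WT replicate 10 or 12 or without sudemycin S34F replicate 9 or 12. Cx3cr1 had 24.5, 36.4, 43.4, 53.8 and 56.4 CPM in sudemycin WT mice and 30.5, 33.3, 43.5, 47.3 and 54.2 CPM in sudemycin S34F mice. These ranges overlapped, and the interval held differences in both directions (log2 fold change -0.047, 95% CI -0.52 to 0.43, FDR = 0.899). Ly86, Ms4a6c and Irf8 had log2 fold changes of 0.27, 0.20 and 0.052 and were not called (FDR = 0.128, 0.344 and 0.783 in edgeR). Their values ran from 21.2 to 27.0 CPM in WT and from 20.6 to 33.9 CPM in S34F mice for Ly86, from 74.6 to 118 and from 78.9 to 133 CPM for Ms4a6c, and from 103 to 137 and from 95.8 to 152 CPM for Irf8. Ly86 was called higher without sudemycin S34F replicate 9 (log2 fold change 0.38, FDR = 0.0168) or without sudemycin WT replicate 6 (log2 fold change 0.32, FDR = 0.0909).

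**Figure D2:**
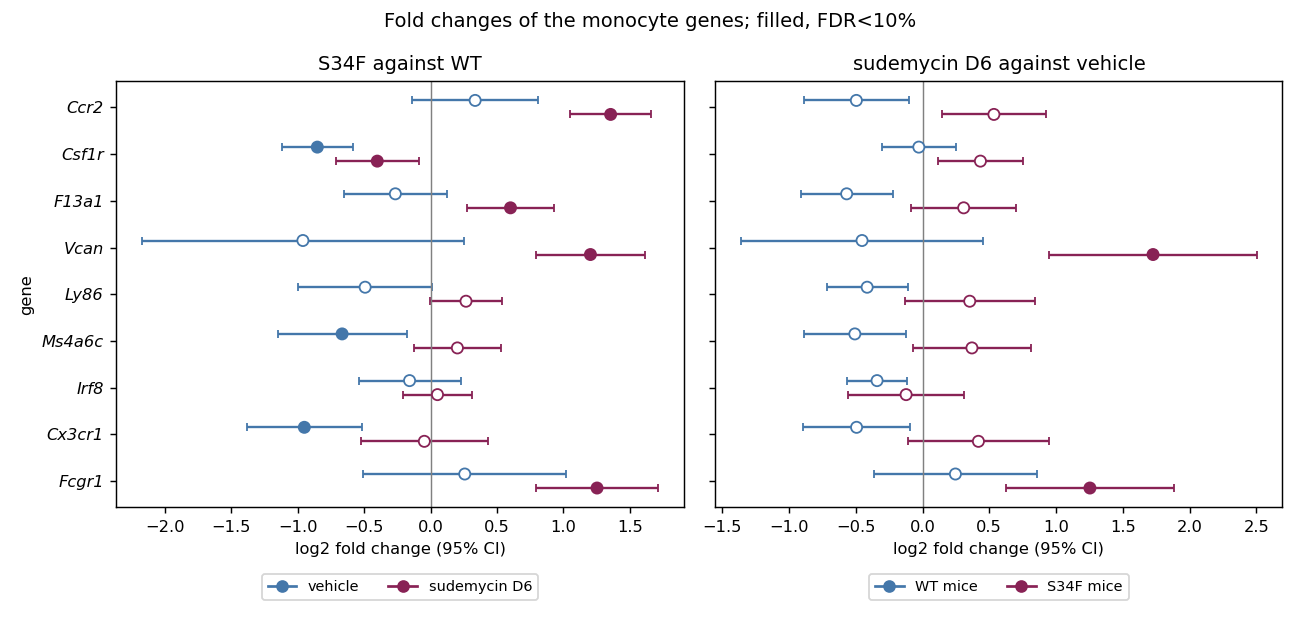
Log2 fold changes (horizontal axis) of the 9 genes with their 95% confidence intervals; left, U2AF1(S34F) against U2AF1(WT) under vehicle and under sudemycin D6; right, sudemycin D6 against vehicle in each genotype; filled points had FDR<10%. For Vcan the point is -0.96 under vehicle and 1.20 under sudemycin D6, and in the right panel it is -0.45 in WT and 1.73 in S34F mice.

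The drug alone, in U2AF1(WT) marrow, left none of the 9 genes past the threshold, although 8 of the 9 estimates were below 0 and 1 was above, beside 50.8% above 0 over all genes. Called genes were few at large, 1.18% higher and 1.89% lower of 14763 genes tested. F13a1 had 576 to 920.2 CPM under vehicle and 409 to 675 CPM under sudemycin D6, and was the nearest to a call (log2 fold change -0.57, 95% CI -0.91 to -0.22, FDR = 0.106). By DESeq2, F13a1 (adjusted p = 0.0223) and Irf8 (adjusted p = 0.0804) were called lower. Irf8 (ENSMUSG00000041515, chr8:123260258-123280594, + strand), the transcription factor that directs progenitors toward monocytes and dendritic cells, had 138, 146, 149, 164 and 182 CPM in vehicle WT mice. In sudemycin WT mice it had 103, 124, 124, 135 and 137 CPM. All the drug-treated mice were below all the vehicle mice (log2 fold change -0.34, 95% CI -0.56 to -0.12, FDR = 0.141), and Irf8 was the 1 gene of the 9 whose groups did not overlap, beside 4.15% of all genes. Irf8 overlaps the annotated gene Gm20388 on the same strand. Csf1r overlaps Hmgxb3 and Vcan overlaps Gm16318 and Gm4117 on the other strand. How the counting treated shared reads and strand is not given in the sources used here. Unadjusted p-values were under 0.05 for 6 of the 9 genes (Ccr2, F13a1, Ly86, Ms4a6c, Irf8 and Cx3cr1), beside 13.3% of all genes. The log2 fold changes of these 6 lay between -0.57 and -0.34. Most of the 9 genes moved together from mouse to mouse, as described below, so these counts are not of independent genes. Csf1r was at -0.028, Vcan at -0.45 and Fcgr1 at 0.25, with intervals that included 0. The count of called genes was not stable to single mice: without vehicle WT replicate 4, F13a1, Ly86 and Ms4a6c were called lower (FDR = 0.0738, 0.0916 and 0.0985 in edgeR), and without sudemycin WT replicate 6, F13a1 was (FDR = 0.0406).

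In U2AF1(S34F) marrow, the drug went with higher Vcan and Fcgr1. Here 2 of the 9 genes were called higher and 0 lower, beside 4.94% and 5.85% of the 14714 genes tested. Vcan had 26.1 to 111 CPM under vehicle and 142 to 238 CPM under sudemycin D6. The groups did not overlap, which held for 1 of the 9 genes and for 7.8% of all genes, and Vcan rose 3.31-fold (log2 fold change 1.73, 95% CI 0.95 to 2.50, FDR = 0.022). Fcgr1 had 4.77, 5.42, 5.53, 5.67 and 14.05 CPM in vehicle S34F mice, of which 1 (replicate 5) lay among the values of the drug-treated mice. It rose 2.38-fold (log2 fold change 1.25, 95% CI 0.62 to 1.89, FDR = 0.0318). Ccr2 and Csf1r missed the threshold narrowly, at log2 fold changes of 0.53 and 0.43 (FDR = 0.105 and 0.106 in edgeR). Both were called by DESeq2 (adjusted p = 0.0253 and 0.0364), and by edgeR without vehicle S34F replicate 5 (FDR = 0.0669 and 0.0432) or sudemycin S34F replicate 9 (FDR = 0.0937 and 0.0637). F13a1, Ly86, Ms4a6c and Cx3cr1 had log2 fold changes of 0.31, 0.35, 0.37 and 0.42, with FDR from 0.303 to 0.379 in edgeR. Irf8 was the only gene of the 9 with an estimate below 0, -0.12 (FDR = 0.763 in edgeR).

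Whether the drug acted differently by genotype was tested as an interaction over all 20 mice. Here too a difference by genotype and a difference by sex cannot be told apart. This comparison and the preceding ones share mice. All 9 interaction estimates were above 0, which means that the drug's log2 fold change was the larger one in S34F marrow, whereas 43.2% of the 15392 genes tested had an estimate above 0. None of the 9 passed FDR<10% in edgeR, where the share of all genes called was 0.013%. Unadjusted p-values were under 0.05 for 8 of the 9 genes, beside 7.43% of all genes. Most of the 9 genes moved together from mouse to mouse (median r of 0.62 between pairs within groups, described below). Their signs and p-values are therefore not independent of each other. Vcan had the largest estimate of the 9 (log2 fold change 2.16, 95% CI 0.96 to 3.37, FDR = 0.305), followed by Ccr2 (log2 fold change 1.01, 95% CI 0.45 to 1.58, FDR = 0.305). The estimates of Fcgr1, Cx3cr1, Ms4a6c and F13a1 lay between 0.86 and 0.99. Ly86 was at 0.75, Csf1r at 0.44 and Irf8 at 0.20, the last with an interval from -0.27 to 0.67. By DESeq2, 3 of the 9 interactions were called, those of Ccr2, Vcan and F13a1 (adjusted p = 0.0386, 0.0489 and 0.0821). Without vehicle S34F replicate 5, edgeR called those of Vcan and Ccr2 (FDR = 0.0421 and 0.0915).

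Mutation and drug together, sudemycin S34F against vehicle WT marrow, gave 2 genes higher and 3 lower, beside 25.1% higher and 25.1% lower of the 14761 genes tested. Ccr2 (log2 fold change 0.89, 95% CI 0.48 to 1.29, FDR = 0.00289) and Fcgr1 (log2 fold change 1.52, 95% CI 1.01 to 2.04, FDR = 0.000521) were higher, with no overlap between the groups. Csf1r (log2 fold change -0.41, 95% CI -0.65 to -0.16, FDR = 0.0119) and Cx3cr1 (log2 fold change -0.52, 95% CI -0.81 to -0.22, FDR = 0.00958) were lower. Irf8 was called lower near the threshold (log2 fold change -0.26, 95% CI -0.51 to -0.018, FDR = 0.0789), and its FDR rose above 10% without any 1 of vehicle WT replicates 1 and 2 or sudemycin S34F replicates 6, 9 and 12, where the lowest and highest FDR were 0.103 and 0.2. Vcan had a log2 fold change of 0.78 (FDR = 0.159 in edgeR), and of 1.25 (FDR = 0.00769) without vehicle WT replicate 2, the mouse with 220.0 CPM. F13a1, Ly86 and Ms4a6c had log2 fold changes from -0.28 to 0.059 and were not called. Without vehicle WT replicate 4, Ms4a6c was called lower (log2 fold change -0.39, FDR = 0.0689).

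A ratio of 2 genes within a mouse does not depend on library size or on the correction of it. The ratio of Ccr2 to Csf1r, in CPM, was 0.722, 0.967, 1.11, 1.38 and 1.4 in vehicle WT mice and 0.668, 0.698, 0.776, 0.896 and 1.08 in sudemycin WT mice. It was 2.16, 2.31, 2.49, 2.84 and 2.85 in vehicle S34F mice and 2.45, 2.5, 2.85, 2.87 and 3.03 in sudemycin S34F mice. Each of the 10 S34F mice had a higher ratio than each of the 10 WT mice, with drug and without. This pair was chosen after its values were seen and was not tested. Of the 36 pairs among the 9 genes, 12 had ratios that did not overlap between genotypes under vehicle and 19 under sudemycin D6, and 7 pairs did so in the same direction in both. Among all 110774170 pairs of the 14885 genes tested that had reads in every mouse, 17.7% were apart under vehicle, 16.4% under sudemycin D6 and 7.61% in the same direction in both. The pairs share genes and are not independent of each other. In 5 of these 7 pairs Ccr2 was high relative to another gene (Csf1r, F13a1, Ly86, Ms4a6c or Cx3cr1). The other 2 were F13a1 over Ms4a6c, which was high in S34F, and Csf1r over F13a1, which was low. Between drug and vehicle, 1 of the 36 ratios was apart in WT mice and 14 in S34F mice, beside 4.19% and 7.45% of all pairs. Of the latter, Irf8 was the low partner against Ccr2, Csf1r, F13a1, Vcan, Ly86, Ms4a6c, Cx3cr1 and Fcgr1, that is, against each of the other 8 genes. The ratio of Csf1r to Irf8, for example, ran from 1.07 to 1.76 in vehicle and from 1.87 to 2.39 in sudemycin S34F mice. Vcan was the high partner against Ccr2, Csf1r, F13a1, Ly86, Ms4a6c and Cx3cr1 as well.

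**Figure D3:**
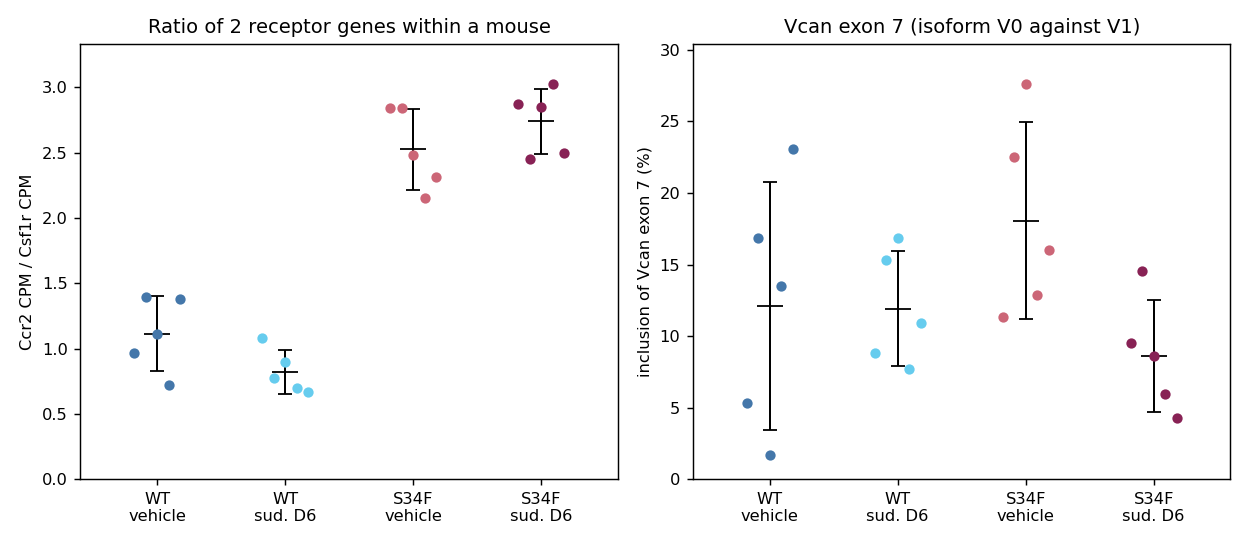
Left, CPM of Ccr2 divided by CPM of Csf1r in each mouse (linear axis from 0); right, inclusion of Vcan exon 7 in percent (from 0); points are mice, and bars are the mean ± SD of 5 mice. The ratio runs from 0.668 to 1.4 in the 10 WT mice and from 2.16 to 3.03 in the 10 S34F mice. The exon 7 share holds reads of isoforms V0 and V2, and does not set V0 against V1 alone.

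Within a group most of the 9 genes went up and down together from mouse to mouse. After the group means were subtracted, Pearson's r over the 20 mice was 0.0053 to 0.95 among the 36 pairs, with a median of 0.62, and 26 pairs were over 0.5. These values are a description over libraries that share a depth correction, and no p is given. F13a1 and Ms4a6c (0.95), Ccr2 and F13a1 (0.94) and Ly86 and Ms4a6c (0.92) were closest. Fcgr1 was the least like the others, with a median r of 0.36, and Cx3cr1 and Fcgr1 had an r of 0.0053. In vehicle S34F replicate 7 all 9 genes were below the group mean, with a mean deviation of -0.57 on the log2 scale. In vehicle S34F replicate 5 all 9 were above it, with a mean deviation of 0.58, and in vehicle WT replicate 2 all 9 were above, with one of 0.48. In sudemycin S34F replicates 6 and 10 all 9 were also above the group mean, with mean deviations of 0.26 and 0.20. All 9 were below it in sudemycin S34F replicate 12, with one of -0.13. In sudemycin WT mice the mean deviations ran from -0.12 to 0.16, with single genes apart in both directions in replicate 8 (Cx3cr1 -0.75 and Fcgr1 0.79). Of the 15383 genes that are not among the 9, those whose deviations followed the mean of the 9 most closely were Tifab (r = 0.98), Fam129b, Capn2, Pld4, Ptpro, S100a4, Epb4.1l2, Ms4a6b, Dse and Prcp (r = 0.94), over 20 mice. Pld4, S100a4 and Ms4a6b are also in the wider list of monocyte genes described next.

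**Figure D4:**
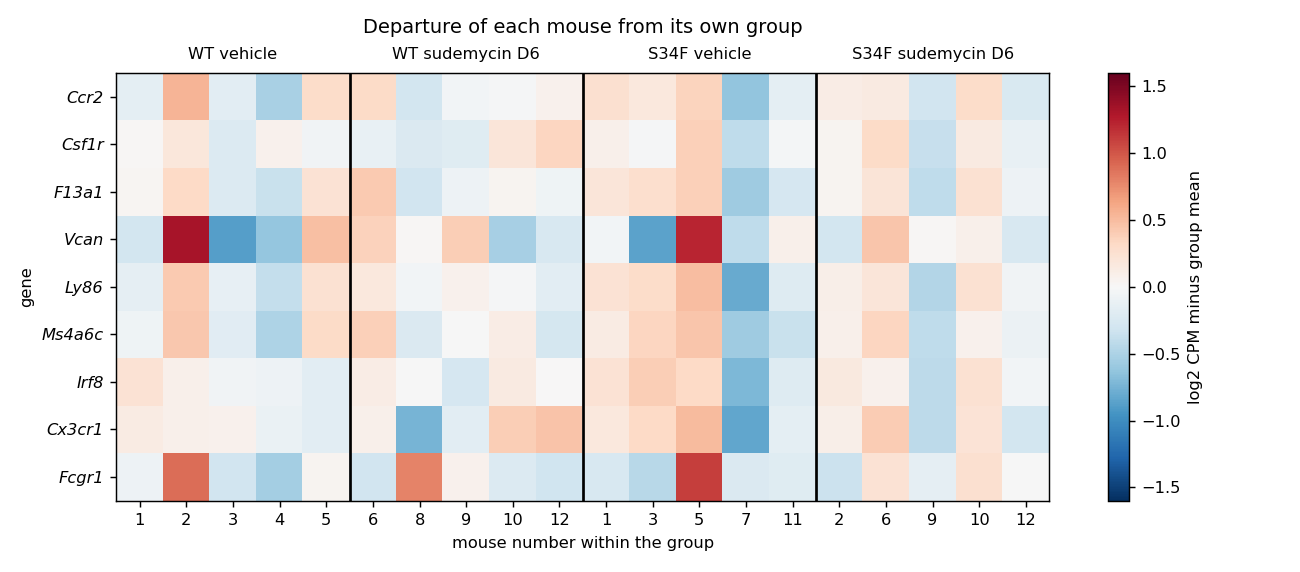
Log2 CPM of each gene (rows) in each mouse (columns, by group and mouse number) minus the mean of its group; red is above and blue below the group mean. The columns of vehicle S34F replicates 5 and 7 are of one colour throughout, with mean deviations of 0.58 and -0.57. In vehicle WT replicate 2 and sudemycin S34F replicates 6, 10 and 12 all genes also lie on the same side of the mean.

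Other monocyte genes were counted in lists that hold none of the 9. Counts of called genes in these lists are to be read beside the shares of all genes called in each comparison, given above. Of 24 wider classical monocyte genes, 9 were lower and 2 higher in S34F marrow under vehicle (median log2 fold change -0.30), among them the lectins Clec4a1 (-1.25) and Clec4a3 (-1.08) lower. Under sudemycin D6, 9 of the 24 were higher and 2 lower (median 0.16), led by Ms4a4c (1.20), the chemokine Ccl9 (0.96) and Ms4a6d (0.89). The drug in WT marrow went with 4 lower and 0 higher (median -0.23), among them Ifi27l2a (-1.39) and Fn1, which encodes fibronectin (-0.68). In S34F marrow the drug went with 5 higher and 1 lower (median 0.40), with Ms4a6d (1.18) and Tgfbi (0.67) higher and the interferon-induced Ifi27l2a (-1.26) lower. The summed level of the 24 genes overlapped between all groups, at 16529 to 18308 CPM in vehicle WT, 14150 to 20058 in sudemycin WT, 14301 to 18624 in vehicle S34F and 16522 to 19535 CPM in sudemycin S34F mice.

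Genes in a list for nonclassical monocytes were mostly lower in S34F marrow with and without the drug. Of 10 such genes, 6 were lower and 1 higher in S34F under vehicle, and 7 were lower and 0 higher under sudemycin D6 (medians -0.38 and -0.99). Of all genes tested, 19.8% and 19.6% were lower in these 2 comparisons. Nr4a1, the nuclear receptor on which nonclassical monocytes depend, had log2 fold changes of -2.86 and -2.33, Ace -1.57 and -1.39. The summed level of the 10 genes was 621 to 753 CPM in vehicle WT and 629.9 to 904 CPM in sudemycin WT mice. It was 451 to 534 CPM in vehicle S34F and 427 to 519 CPM in sudemycin S34F mice, so the genotypes did not overlap. Single genes were apart between genotypes for 20.2% of all genes under vehicle and 19.7% under sudemycin D6, and no such share was taken for sums. The drug called none of the 10 in WT marrow and 2 lower in S34F marrow (Itgax, -0.80, and Cd274, -0.79).

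Of 21 transcription factors of monocyte formation, 13 were lower and 3 higher in S34F under vehicle, and 10 lower and 0 higher under sudemycin D6. The immediate-early genes Egr1 (-2.61 and -2.23) and Egr2 (-1.42 and -1.49) were, with Nr4a1, the largest in both. The drug went with 3 lower in WT (Egr1, -2.27, Egr2, -1.17, and Zeb2, -0.59) and with 3 lower in S34F marrow (Egr1, Egr2 and Irf1). Among the ligands and partners of the 9 products, Ccl2, the ligand of CCR2, was lower in S34F under vehicle (-2.66) and under sudemycin D6 (-1.38), and Cd180, the partner of the Ly86 product, was lower under vehicle (-1.12). In all, 3 of 21 such genes tested were higher and 7 lower under vehicle, 2 of 20 higher and 4 lower under sudemycin D6, 2 of 19 higher and 1 lower with the drug in WT, and 2 of 21 higher and 1 lower with the drug in S34F marrow. Csf1, a ligand of CSF1R, was lower with the drug in S34F marrow (-0.36), and Csf2rb, the shared chain of cytokine receptors, was higher (0.49). In the MS4A family, to which Ms4a6c belongs, 4 of 9 other genes tested were higher in S34F under sudemycin D6 and 0 lower, against 1 higher and 1 lower of 10 under vehicle. Ms4a4c, Ms4a6b and Ms4a6d are in this list and in the wider one.

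Markers of other cells and of the interferon response were counted as well, and the counts are to be read beside the shares of all genes called in each comparison, given above. Their part in the results on the 9 genes was not tested. Of 12 late neutrophil genes, 4 were higher and 1 lower in S34F under vehicle, and the summed level was 68672 to 77262 CPM in vehicle WT and 89317 to 146153 CPM in vehicle S34F mice. Under sudemycin D6 it was 63509 to 113011 CPM in WT and 75870 to 127825 CPM in S34F mice. Between genotypes under the drug, 2 of the 12 were higher and 1 lower. Against vehicle, the drug called 1 lower in WT and 1 lower in S34F marrow. Of 13 marrow macrophage genes, which share Csf1r and Fcgr1 expression with monocytes, 3 were higher and 1 lower under vehicle. Under sudemycin D6, 1 was higher and 0 lower. The drug called 1 lower and 0 higher in WT marrow and 0 of 13 in S34F marrow. Of 11 dendritic cell genes, 2 were lower and 0 higher under vehicle and with the drug in WT marrow. Of 10 of them tested under sudemycin D6, 1 was higher (Clec9a, 0.86) and 3 were lower, and of 10 tested with the drug in S34F marrow, 1 was higher (Clec9a, 1.07) and 2 were lower (Siglech, -1.35, and Flt3, -0.52). Of 10 B cell genes, 0 were called under vehicle and 7 were lower and 0 higher under sudemycin D6. Summed levels under sudemycin D6 were 33.2 to 233 CPM in WT and 46.3 to 66.2 CPM in S34F mice. With the drug, 1 of the 10 was lower in WT and 1 in S34F marrow. Of 14 interferon-stimulated genes, 5 were higher in S34F under vehicle, and with the drug 10 were lower in S34F marrow and 1 in WT marrow. The summed level was 438 to 499.6 CPM in vehicle WT, 328 to 1003 in sudemycin WT, 468 to 972 in vehicle S34F and 349 to 457 CPM in sudemycin S34F mice. Fcgr1, which interferons induce, was higher in the sudemycin S34F group, in which these 14 genes had no mouse above 457 CPM. The mice with the highest summed level in their groups, sudemycin WT replicate 8 (1003 CPM) and vehicle S34F replicate 5 (972 CPM), were also the mice with the highest Fcgr1 of their groups. In vehicle WT and sudemycin S34F mice the highest summed level and the highest Fcgr1 were in different mice. Of 6 genes of neutrophil primary granules, 4 were higher under vehicle and 4 under sudemycin D6, and the drug called none. Of 9 erythroid genes, 1 was lower under vehicle, 5 under sudemycin D6 and 3 with the drug in S34F marrow, and none was higher. Of 9 T and NK cell genes, 3 were higher and 1 lower under vehicle, and 4 were lower and 0 higher under sudemycin D6. The drug called 0 of the 9 in WT marrow and 3 lower in S34F marrow. Of 8 megakaryocyte, 7 granulocyte (eosinophil, basophil and mast cell) and 7 stromal and endothelial genes, 2, 2 and 2 were lower and 1, 0 and 1 higher under vehicle. Under sudemycin D6, 2, 3 and 2 were lower and 0 higher. With the drug, 0, 3 and 0 of these were lower in WT marrow and 2, 1 and 1 in S34F marrow, and 0 were higher. None of the markers in these lists was at 0 in all mice.

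**Figure D5:**
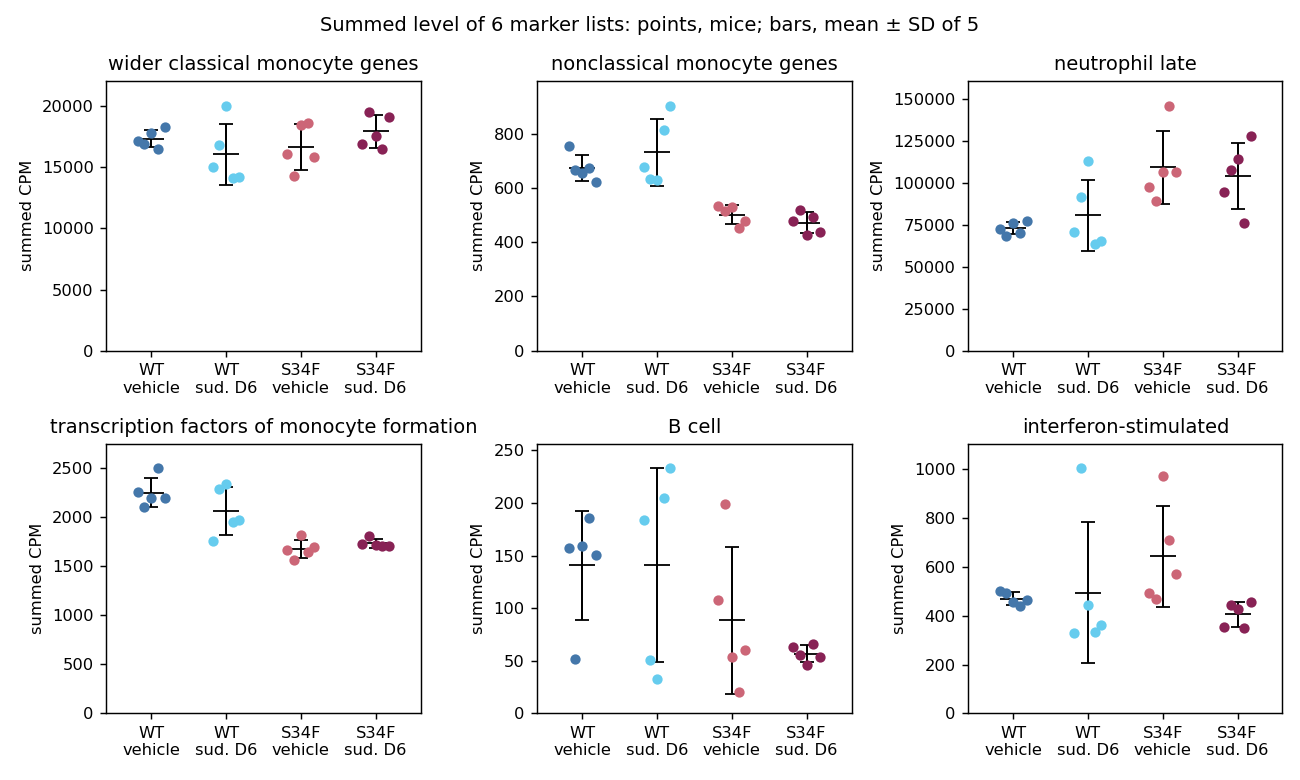
Summed CPM (linear axes from 0) of 6 gene lists in each mouse; points are mice, and bars are the mean ± SD of 5 mice. For the nonclassical monocyte genes the 10 S34F mice run from 427 to 534 CPM and the 10 WT mice from 621 to 904 CPM.

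Reads that span splice junctions come from the same libraries but count spliced RNA alone. The 9 genes had 78 introns with both ends annotated and 10 or more reads in the average mouse. The ratio of junction reads, scaled to each mouse's total of junction reads, had the sign of the gene counts in 34 of 36 cases (9 genes in the 4 comparisons of genotype and of drug), and single introns did so in 289 of 312 cases. The 2 exceptions were Irf8 under sudemycin D6 and Fcgr1 under vehicle, both genotype comparisons with no call. For mutation plus drug, F13a1 also differed in sign, at -0.13 by junction reads and 0.059 by gene counts, and was not called. For Csf1r all 21 introns were lower in S34F under vehicle, by log2 ratios from -1.21 to -0.49. For Vcan all 14 introns were higher with the drug in S34F, from 0.80 to 2.04. For Ccr2 both introns were higher in S34F under sudemycin D6 (1.54 and 1.69). The single intron of Cx3cr1 was at -1.25 under vehicle, on 37 to 261 reads per mouse.

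Vcan was the one gene of the 9 with splicing events that could be tested. Its very long exons 7 and 8 encode the stretches that carry glycosaminoglycan chains, and their inclusion or skipping makes the isoforms V0 (both), V1 (exon 8), V2 (exon 7) and V3 (neither). The inclusion share Ψ of exon 7 (2880 bp, chr13:89842523-89845402, - strand, mm9) was taken between exons 6 and 8. Reads from exon 6 to 7 and from 7 to 8 are set against reads from 6 to 8. Reads from exon 6 to 7 come from V0 and V2, so this share does not tell V0 from V1 alone. It was 1.69, 5.31, 13.5, 16.8 and 23.1% in vehicle WT mice and 7.69, 8.85, 10.9, 15.3 and 16.9% in sudemycin WT mice. It was 11.3, 12.9, 16, 22.5 and 27.6% in vehicle S34F mice and 4.31, 5.98, 8.61, 9.52 and 14.5% in sudemycin S34F mice. All groups overlapped, and each value rests on 30 to 257 junction reads. The change with the drug in S34F mice was -9.48 percentage points (unadjusted p = 0.00565, FDR = 0.223 in edgeR), and the FDR was 0.441 in limma on the shares. The exon 8 event between exons 7 and 9 had group means of 94.5% to 96.5%. Its inclusion reads include those from exon 8 to 9, which V1 gives as well, so this share does not measure V2. Skipping reads, from exon 7 to 9 as in V2, summed to 34 in vehicle WT and 11 in sudemycin WT mice. In vehicle S34F and sudemycin S34F mice they summed to 7 and 37. The 4 Vcan events are exons 7 and 8, each between either of 2 pairs of neighbours, and share reads, and exon 7 between exons 6 and 9 rested on as few as 1 read in a mouse. Of these 4 events, 0 were called (FDR<10% and a change over 1 percentage point) in the genotype comparisons under vehicle and under sudemycin D6 and in the drug comparisons in WT and in S34F marrow. Of all events tested, 3.38%, 3.45%, 0.985% and 1.28% were called in these comparisons. Without sudemycin S34F replicate 6, 1 of the 4 was called with the drug in S34F marrow. The number of reads limits what could be seen of these events.

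U2AF1(S34F) is known to favour some bases over others directly before the AG of the 3′ splice site. The ends of the introns before the alternatively used Vcan exons, with the first 3 bases of the exon, are shown because they differ at that place, the base at position -3 of the intron being in capitals (mm9, - strand, 5′ to 3′).
Vcan exon 7, chr13:89845400-89845422: ctttgaaattatctttcTagcta
Vcan exon 8, chr13:89833104-89833126: aaactctttgtttttttCaggtc
Exon 7 has a T and exon 8 a C before the AG. Over the 9 genes, 57 of 76 acceptor sites with an AG and at least 10 junction reads on average had C there (75%), 16 had T, 2 had A and 1 had G. Among all annotated junctions with as many reads, C made up 62.5% and T 31.5%. Csf1r had C at 18 of 21 sites, Vcan at 8 of 13 and F13a1 at 10 of 15. These are counts of letters and were not tested.

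Promoters were read for the genes as a description of sequence, and their part in the levels of the genes was not tested. The RefSeq table of windows from 250 bases before to 50 bases after each start (build GRCm38.p6, a different build from the mm9 of the counts) held 10 windows for 8 of the 9 genes. Both strands were searched for 7 short motifs, those of transcription factors that act in myeloid cells and the TATA box. Matches of different motifs may overlap. The STAT motif TTCNNNGAA is in 8.3% of all windows. The interferon-stimulated response element core GAAANNGAA is in 8.56%, and the composite of ETS and IRF sites GGAANNGAA in 8.24%. The STAT motif was found in Fcgr1 and Irf8 and in no other of the 10 windows, Vcan included. The gene without a window was not searched. The composite was found in Ccr2 and Ms4a6c, and the response element core in Ccr2, Ms4a6c and Ly86. The last 200 bases before the start are shown for these first 2 genes and for Ccr2, with the matches of these 3 motifs in capitals (5′ to 3′, on the strand of the gene).
Irf8, chr8:120736158-120736357, + strand: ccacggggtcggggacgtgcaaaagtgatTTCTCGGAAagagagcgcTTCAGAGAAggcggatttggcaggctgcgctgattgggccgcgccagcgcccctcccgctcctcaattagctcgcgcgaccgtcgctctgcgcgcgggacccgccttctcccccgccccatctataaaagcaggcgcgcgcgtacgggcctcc
Fcgr1, chr3:96293970-96294169, - strand: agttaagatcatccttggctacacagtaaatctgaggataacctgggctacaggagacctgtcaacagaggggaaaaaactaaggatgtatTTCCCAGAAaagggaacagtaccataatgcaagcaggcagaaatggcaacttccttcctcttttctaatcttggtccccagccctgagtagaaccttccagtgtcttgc
Ccr2, chr9:124101983-124102182, + strand: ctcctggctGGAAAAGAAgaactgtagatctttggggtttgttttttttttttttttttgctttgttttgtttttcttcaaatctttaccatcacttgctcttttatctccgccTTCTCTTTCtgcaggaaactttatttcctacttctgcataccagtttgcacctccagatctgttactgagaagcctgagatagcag
Irf8 holds 2 matches of the STAT motif, 171 and 153 bases before the start, and Fcgr1 holds 1, at 109 bases. In Ccr2 the composite match lies at 191 bases and the response element match, on the other strand, at 86 bases before the start. Of the other motifs, the PU.1 motif GAGGAAGT (3.2% of all windows) was in 1 of the 10 windows, of F13a1 after its start, and the TATA box TATAAA (13.6%) was in 1, of Irf8. The C/EBP motif TTGCNNAA (10.8%) and the AP-1 motif TGANTCA (7.81%) were in none. A match describes letters and not binding. By position, F13a1 and Ly86 are near neighbours, 295 kb apart on chromosome 13 (mm9), on opposite strands. Neither was called between genotypes under vehicle, and under sudemycin D6 F13a1 was called and Ly86 was not, a difference between the 2 genes that was not tested.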

How the data were processed

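Bulk bone marrow RNA of 20 mice in 4 groups of 5 was depleted of ribosomal RNA and sequenced stranded and paired-end (126 bp). The authors aligned the reads with TopHat 2.0.8 to mm9 (NCBI build 37) and deposited counts per gene and per splice junction, as whole numbers without normalization; the counting program is not given in the sources used here. Gene counts summed to 41145892 to 62138138 per mouse, and none of the 40 pairs of libraries of the same group agreed within sampling noise.

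Differences were tested by the quasi-likelihood method of edgeR 4.0.16 (R 4.3.3) with TMM scaling, its default filter and robust fitting (prior count 2, Benjamini-Hochberg over all genes, FDR<10%). Each comparison was fitted on its own 10 mice and the interaction on 20. Splicing events were built from annotated junctions with a mean of at least 10 reads, and inclusion and skipping counts were tested in edgeR with the dispersion set to 0, a form chosen in earlier work on these data. Alternatives were DESeq2 1.42.0, its size factors in edgeR, library sizes without TMM, other filters, genes off the sex chromosomes, 1 model of all mice, FDR<5%, a replicate block, limma 3.58.1 for splicing, and leaving out each mouse. The gene and splicing tests were checked on simulated data. Junction positions, introns and acceptor bases came from the mm9 reference.

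The 9 genes and the 16 gene lists were chosen with earlier results of these data known. All 9 genes are named in every comparison; of each list, counts and at most the 3 called genes with the largest fold change are named, and further the 10 genes that follow the 9 most closely. A listed gene that this rule would name is not reported here, and retained introns were not analysed here.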

Additional observations from a re-analysis of the deposited data

Results flagged for a closer look

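In 36 groups of 5 mice (9 genes in 4 groups), 3 groups held 1 mouse that lay far from the other 4. The cut used gives about 1 in 20 for independent values with a normal spread. The 36 groups share mice, and Vcan and Fcgr1 moved together within groups (r = 0.79), so that rate is no measure for the count of 3. Vcan was 111 CPM in vehicle S34F replicate 5, and the next mouse had 50.01 CPM. Fcgr1 was 14.05 CPM in the same mouse, where the next had 5.67 CPM. Fcgr1 was 11.8 CPM in sudemycin WT replicate 8, where the next had 7.09 CPM. Without vehicle S34F replicate 5, the log2 fold change of Fcgr1 between genotypes under vehicle was -0.15 in place of 0.26, and it was not called in either case. With the drug in S34F marrow, Fcgr1 had a log2 fold change of 1.66 and Vcan of 2.18 without that mouse, in place of 1.25 and 1.73. Between genotypes under sudemycin D6, Fcgr1 had 1.51 without sudemycin WT replicate 8, in place of 1.25.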

How the results depend on the processing

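Of 1017 recomputed log2 fold changes of the 9 genes, 955 kept their direction and their side of the threshold, and of 286 recomputed counts 248 stayed within 1.5 times. The fits that use the spread otherwise moved counts most. DESeq2 called 2 of the 9 genes with the drug in WT marrow, 4 with the drug in S34F marrow and 3 for the interaction (edgeR called 0, 2 and 0), and over all genes 835 with the drug in WT marrow and 116 for the interaction, against 453 and 2. DESeq2 size factors in edgeR gave 4 of the 9 with the drug in S34F marrow. A single model of all 20 mice gave 5 of the 9 between genotypes under vehicle and 1 with the drug in WT marrow, and over all genes 1072 with the drug in WT and 788 with the drug in S34F marrow (1588 otherwise). Without a filter on low counts, 1 of the 9 was called with the drug in WT marrow and 10 genes for the interaction. The interaction had 8 genes with a minimum of 1 CPM in 5 mice, 4 without TMM and 1 without the sex chromosomes. At FDR<5%, 243 genes were called with the drug in WT and 826 with the drug in S34F marrow. Without TMM, the split of calls over all genes moved from 727 higher and 861 lower to 459 and 831 with the drug in S34F marrow, and from 3706 and 3709 to 2625 and 4436 for mutation plus drug, where the log2 fold change of F13a1 was -0.0073. Irf8, called lower there, had an FDR of 0.106 without the filter and 0.209 in the single model in edgeR. The cause of these shifts was not tested.

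With 1 mouse left out at a time, the number of the 9 genes called ranged from 3 to 5 between genotypes under vehicle, 0 to 3 with the drug in WT, 2 to 4 with the drug in S34F marrow and 0 to 2 for the interaction. Over all genes it ranged from 191 to 730 with the drug in WT (lowest without vehicle WT replicate 1, highest without vehicle WT replicate 2), 913 to 1736 with the drug in S34F marrow (lowest without sudemycin S34F replicate 2) and 2 to 87 for the interaction (highest without vehicle S34F replicate 5), and Vcan events called with the drug in S34F marrow from 0 to 1. Log2 fold changes that changed sign, none of them called, ranged from -0.15 to 0.56 for Fcgr1 under vehicle, from -0.0055 to 0.15 for Irf8 and -0.18 to 0.069 for Cx3cr1 under sudemycin D6, from -0.12 to 0.033 for Csf1r, -0.64 to 0.022 for Vcan and -0.0043 to 0.55 for Fcgr1 with the drug in WT marrow, and from -0.027 to 0.15 for F13a1 with mutation plus drug.

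Mouse numbers are shared by 3 pairs of mice under vehicle and 4 under sudemycin D6, but nothing in the sources ties the numbers to a litter or batch. Deviations from the group means over 15392 genes correlated at 0.066, 0.13 and -0.048 for the vehicle pairs and at 0.21, -0.11, 0.073 and 0.12 for the sudemycin D6 pairs, so the numbers were not taken to pair the mice. The fit with a replicate block used only these 3 pairs under vehicle and 4 pairs under sudemycin D6, and left the other mice out. What the block changed and what the loss of mice changed therefore cannot be told apart. Vehicle S34F replicate 7 and vehicle WT replicate 2 were among the mice left out. With the block under vehicle, 5 of the 9 genes were called. Ccr2 was higher (log2 fold change 0.61, FDR = 0.00458 in edgeR) and Vcan lower (log2 fold change -0.57, FDR = 0.0254) besides the 3, and Irf8 had an estimate of 0.10. With the block under sudemycin D6, 5 of the 9 were called, the same number as without it.

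The depth limits what can be said of Fcgr1, with 182 to 1068 counts per mouse, and of the Vcan exon shares, with 30 to 257 reads.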
